A study of Homo sapiens with 48 samples.

Results

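BV6 belongs to the bivalent Smac mimetics, which bind inhibitor of apoptosis proteins and cause the loss of cIAP1 and cIAP2. The comparison described here asks how the response to BV6 in EVSA-T cells differed from that in MDA-MB-231 cells, gene by gene. Both are established human breast cancer lines. It was the BV6 response of EVSA-T (BV6 minus untreated, 2 and 2 arrays) minus the BV6 response of MDA-MB-231 (3 and 3 arrays), so it used 10 of the 48 arrays of the study. A positive difference means that the gene rose more, or fell less, in EVSA-T. All 10 samples had been transfected for 36 h with 5 nM control siRNA. EVSA-T cells then received 5 nM BV6 and MDA-MB-231 cells 50 nM BV6 for 9 h, and the untreated cells of each line were taken at the same time. The same design with 5 nM siRNA against TNFR1 (TNFRSF1A, the main receptor for TNF) gave 10 further arrays. A time course in untransfected MDA-MB-231 cells gave 16 arrays, 2 per group: 50 nM BV6 at 3, 6, 9, 12 and 15 h, and no treatment at 0, 9 and 15 h. RNA was hybridised to Illumina HumanHT-12 bead arrays, and levels are background-corrected, normalized log2 signals on which undetected probes lie near 5.3.

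As background, loss of the cIAPs stabilises the kinase NIK (MAP3K14), which drives processing of NFKB2 and the non-canonical NF-kB pathway. In many sensitive cells it also raises TNF, whose binding to TNFR1 then feeds canonical NF-kB, the AP-1 kinases or, without cIAPs, cell death. Chemokines, feedback inhibitors such as NFKBIA and TNFAIP3, and the NF-kB subunits themselves are well-known targets of these pathways.

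The lines differ in more than name, and line, dose and slide cannot be told apart. All EVSA-T arrays lay on 1 slide, and the control-siRNA MDA-MB-231 arrays of replicates 1 and 2 lay on another slide from those of replicate 3. Fits with the slide of replicate 3 alone set 1 BV6 array against 1 untreated array of MDA-MB-231, which are assumed to vary like the other groups. The untreated mean was higher in EVSA-T for 17 of 19 luminal markers, KRT18 and AGR2 being higher in MDA-MB-231, and higher in MDA-MB-231 for 17 of 17 mesenchymal markers. CDH1 and FOXA1, luminal epithelial markers, averaged 12.41 and 11.94 in untreated EVSA-T and were detected on no control-siRNA MDA-MB-231 array. VIM, AXL and CAV1, mesenchymal markers, averaged 13.87, 12.98 and 13.01 in untreated MDA-MB-231, and AXL and CAV1 were detected on no control-siRNA EVSA-T array. Between 10563 and 10882 probes were detected on the EVSA-T arrays and between 10621 and 13072 on the MDA-MB-231 arrays. Of 15 leukocyte markers 6 passed the detection filter, and their summed linear signal was 572 to 694 in untreated and 893 to 1240 in BV6-treated EVSA-T. CD68, a macrophage lysosomal protein, was the 1 leukocyte marker with a called difference (EVSA-T mean 7.76 untreated, 9.37 with BV6), and the part of other cells in the results was not tested. The summed luminal signal of EVSA-T was 56300 to 57000 untreated and 47400 to 49300 with BV6, and 3 luminal genes fell there. The mesenchymal sum was 2400 on both untreated arrays and 3180 to 4210 with BV6. In MDA-MB-231 the leukocyte sum was 2140 to 2520 untreated and 1960 to 2580 with BV6. Of the other marker lists, the difference was called lower for 1 of 19 luminal genes (CLDN3), higher for 1 of 17 mesenchymal genes (CCN2) and for 0 of 2 fibroblast and endothelial genes. Among all genes tested it was called lower for 1.89% and higher for 3.08%. The labels do not say whether replicates came from separate cultures, so the p-values may measure technical spread only.

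4 promoters are shown because these genes had the largest response differences among the genes that rose in a single line: CCL20 and CFB in EVSA-T, TRAF1 and CXCL2 in MDA-MB-231. The sequences are RefSeq's, build GRCh38.p14, 250 bases before to 50 after the start, on the gene's own strand. Capitals mark matches to a kappaB decamer consensus, to an AP-1 core (TGANTCA) or to an ISRE-type core, searched on both strands; no matches overlapped.
CCL20: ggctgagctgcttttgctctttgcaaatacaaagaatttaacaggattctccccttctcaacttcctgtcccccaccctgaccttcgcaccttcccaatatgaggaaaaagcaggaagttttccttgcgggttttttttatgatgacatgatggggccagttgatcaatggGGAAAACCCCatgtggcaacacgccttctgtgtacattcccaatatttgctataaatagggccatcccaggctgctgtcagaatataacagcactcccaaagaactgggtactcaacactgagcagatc
CFB: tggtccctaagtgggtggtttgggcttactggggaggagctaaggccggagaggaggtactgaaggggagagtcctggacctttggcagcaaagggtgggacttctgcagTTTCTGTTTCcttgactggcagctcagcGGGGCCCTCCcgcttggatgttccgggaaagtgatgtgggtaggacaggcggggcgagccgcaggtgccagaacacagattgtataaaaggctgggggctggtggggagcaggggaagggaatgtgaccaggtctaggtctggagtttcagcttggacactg
TRAF1: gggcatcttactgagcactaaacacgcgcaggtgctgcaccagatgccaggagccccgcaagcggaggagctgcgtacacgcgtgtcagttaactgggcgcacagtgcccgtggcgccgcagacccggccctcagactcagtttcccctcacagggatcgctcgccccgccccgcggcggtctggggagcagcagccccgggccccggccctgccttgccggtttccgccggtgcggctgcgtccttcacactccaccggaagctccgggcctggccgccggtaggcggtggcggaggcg
CXCL2: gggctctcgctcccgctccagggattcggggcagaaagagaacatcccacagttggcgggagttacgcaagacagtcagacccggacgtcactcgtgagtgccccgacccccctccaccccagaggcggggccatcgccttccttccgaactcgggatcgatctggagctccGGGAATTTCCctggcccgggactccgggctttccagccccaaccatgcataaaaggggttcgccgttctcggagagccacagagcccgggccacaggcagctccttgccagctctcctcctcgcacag

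CCL20 lies at chr2:227813592-227813891 (plus strand) and held a kappaB match at positions -79 to -70 from the start, written GGAAAACCCC. CFB lies at chr6:31945845-31946144 (plus strand) and held a kappaB match at positions -112 to -103 (GGGGCCCTCC) and an ISRE-type match at positions -140 to -131 (TTTCTGTTTC). CXCL2 lies at chr4:74099146-74099445 (minus strand) and held a kappaB match at positions -78 to -69 (GGGAATTTCC). The TRAF1 window, chr9:120929122-120929421 (minus strand), is the first of 3 starts in the table and held none of these letters. A kappaB match stood in 8.91% of the promoters of the genes tested. It stood in 31 of 222 promoters (14%) of the genes that rose in EVSA-T alone, in 5 of 14 of those that rose in MDA-MB-231 alone, and in 8 of 117 (6.84%) of those that fell in EVSA-T alone. Among genes with a called difference that moved the same way in both lines, 7 of 16 promoters (43.8%) held one, so a high share was not particular to single-line genes. These matches are descriptions of letters in a window.

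The response differed between the lines for 532 of 10716 genes (limma, Benjamini-Hochberg adjusted p under 0.05): it was higher in EVSA-T for 330 genes, 3.08% of those tested, and lower for 202, 1.89%. Most of these genes had a called response in EVSA-T and an uncalled response in MDA-MB-231, which does not show that they stayed unchanged there. Within EVSA-T, 733 genes rose (6.84%) and 669 fell (6.24%) with BV6, whereas within MDA-MB-231 152 rose (1.42%) and 69 fell (0.644%). These counts include the 101 genes called in both lines. A gene was counted as responding in a single line only if its response was called in that line, not called in the other, and the difference itself was called. That left 284 genes up and 167 down in EVSA-T only, and 20 up and 8 down in MDA-MB-231 only. The difference was also called for 30 genes that moved the same way in both lines, for 1 gene that moved in opposite ways, and for 22 genes called in neither line. Another 850 genes were called in EVSA-T but not in MDA-MB-231 without a called difference, and 92 the other way round, so the response of these genes was not shown to differ between the lines.

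**Figure D1:**
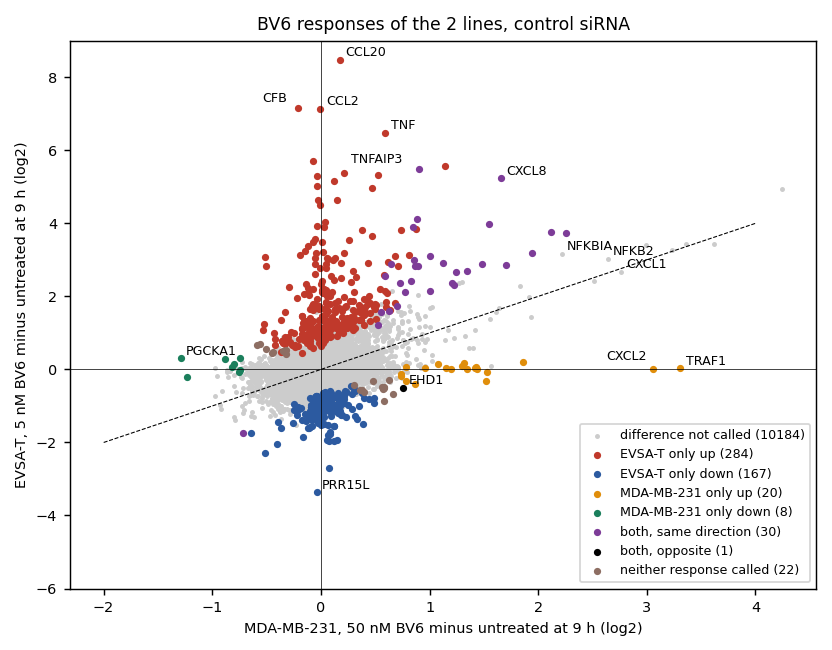
BV6 response in MDA-MB-231 (x axis, log2) against that in EVSA-T (y axis, log2) for each of 10716 genes, coloured by class; the dashed line marks equal responses. CCL20, CFB, CCL2 and TNF stand high on the y axis near 0 on the x axis, TRAF1 and CXCL2 stand to the right near 0 on the y axis, and NFKB2 and CXCL1 lie near the line.

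These counts moved with single arrays. Leaving out MDA-MB-231 BV6 replicate 1 took the MDA-MB-231 calls from 221 to 112, and leaving out untreated replicate 2 or 3 took them to 140 or 146. Leaving out EVSA-T untreated replicate 1, untreated replicate 2 or BV6 replicate 2 took the EVSA-T calls from 1402 to 893, 932 or 914. The MDA-MB-231-only genes went from 28 to 17 without EVSA-T untreated replicate 1 or BV6 replicate 2. With the MDA-MB-231 arrays of the slide of replicates 1 and 2 alone 417 differences were called, and with those of the slide of replicate 3 alone 255. With same-numbered samples as blocks the difference was called for 752 genes, MDA-MB-231 responses for 337 and MDA-MB-231-only genes for 45. When each line's detected genes alone were tested (at least 2 control-siRNA arrays in each line), 312 differences were called, among them 262 EVSA-T-only and 6 MDA-MB-231-only genes.

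The genes that rose in EVSA-T only were led by secreted signals of inflammation. CCL20, the chemokine that draws CCR6-bearing lymphocytes and dendritic cells, lay at 5.42 and 5.20 on the untreated EVSA-T arrays and at 13.90 and 13.67 on the BV6 arrays. On the control-siRNA MDA-MB-231 arrays it stayed undetected, at 5.24 to 5.29 untreated and 5.34 to 5.55 with BV6. It therefore rose at least 337-fold in EVSA-T, and the response difference was 8.30 ± 0.22 (log2, SE, adjusted p = 1.12e-15). Here and below "at least" sets the mean of the detected group against a floor. The floor was the lowest detected signal on each undetected array, or the probe's own signal where that was higher. On the untreated control-siRNA EVSA-T arrays the lowest detected signal was 5.35 and 5.36, beside a median of 5.32 for undetected probes. Where the probe's own signal was higher on each such array, as for CFB, the fold is the fitted response itself. It is then an estimate and no guaranteed minimum. Where a probe was undetected in a group, its fitted log2 difference starts from that background level and is no bound.

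CFB, complement factor B of the alternative pathway, was undetected on both untreated EVSA-T arrays (5.38 and 5.47) and reached 12.75 and 12.43 with BV6, about 143-fold higher. In MDA-MB-231 it was already detected at 6.29 to 7.18 and lay at 5.86 to 6.74 with BV6, so the groups overlapped there (difference 7.37 ± 0.53, adjusted p = 6.61e-09). CCL2, which recruits monocytes, went from 5.35 and 5.17 to 12.52 and 12.26 in EVSA-T, at least 131-fold, and was detected on no control-siRNA MDA-MB-231 array (difference 7.13 ± 0.34, adjusted p = 1.35e-11). TNF itself went from 5.30 and 5.20 to 11.88 and 11.60 in EVSA-T, at least 83.6-fold. In MDA-MB-231 it was undetected untreated (5.22 to 5.30) and lay at 5.78 to 5.90 with BV6, detected on 1 of the 3 arrays, and its response was not called (adjusted p = 0.279; difference 5.89 ± 0.37, adjusted p = 9.02e-10). All 3 BV6 arrays of MDA-MB-231 lay above its 3 untreated arrays for TNF. For these 4 genes the 2 EVSA-T groups were far apart, and with the slide of replicates 1 and 2 or that of replicate 3 alone the difference was 8.25 or 8.34 for CCL20 and 7.25 or 7.54 for CFB.

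The next genes were of more varied kinds. IGFL1, a secreted protein of the IGF-like family, rose about 52.2-fold in EVSA-T, and FBLN5, an elastic-fibre matrix protein, about 39-fold. Neither was detected on a control-siRNA MDA-MB-231 array. S100A8, a calcium-binding alarmin, was already near 8.59 and 8.30 in untreated EVSA-T and went to 13.54 and 13.40, and it was detected on no control-siRNA MDA-MB-231 array (difference 5.06 ± 0.24, adjusted p = 1.35e-11). CEBPD, a transcription factor of the acute phase, rose in EVSA-T by 5.38 ± 0.31 (log2, adjusted p = 9.94e-11), from 6.50 and 6.41 to 11.93 and 11.73. In MDA-MB-231 CEBPD was present at 8.09 to 8.48 untreated and 8.39 to 8.73 with BV6, a response of 0.21 ± 0.25. BV6 thus took EVSA-T from below the MDA-MB-231 level of this probe to above it.

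**Figure D2:**
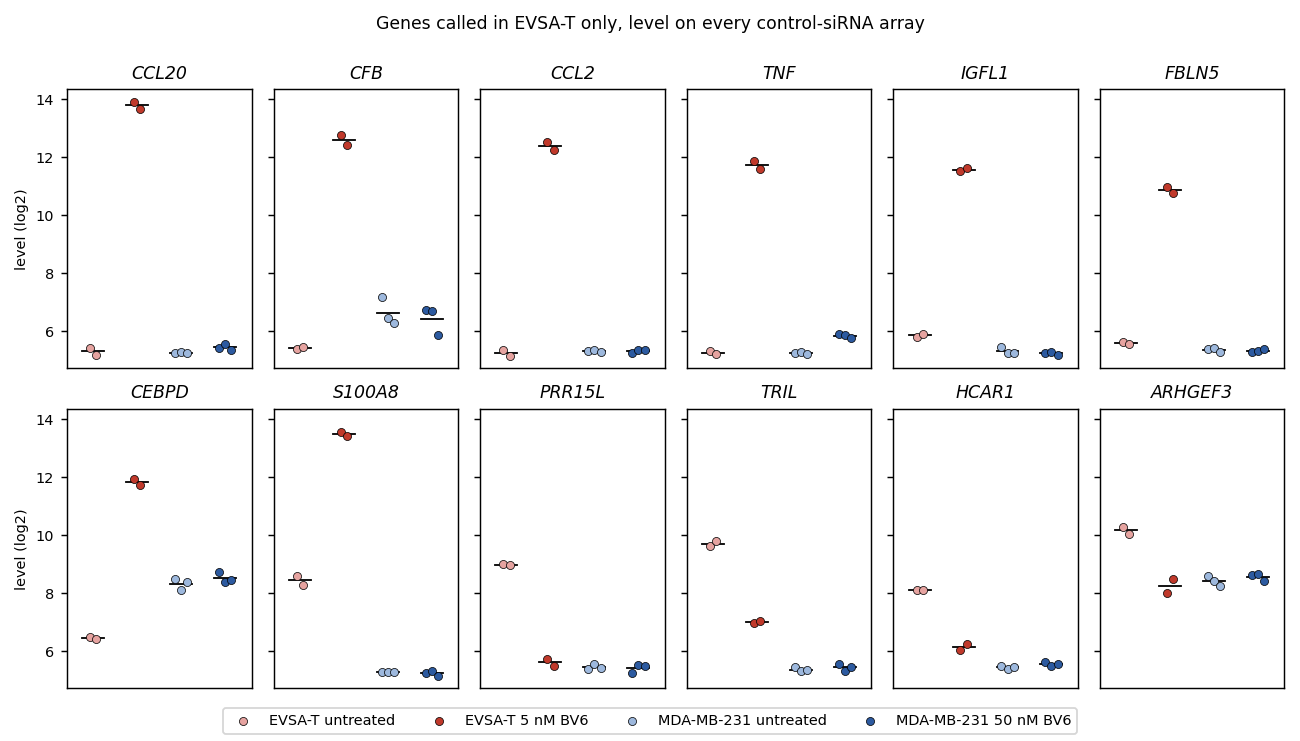
Level (log2, y axis) on every control-siRNA array for the 8 genes with the largest difference among those up in EVSA-T only and the first 4 of those down; points are arrays, bars are group means. The red BV6 points of EVSA-T stand apart from its pale untreated points in every panel, whereas the MDA-MB-231 groups lie close together.

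IRF1 showed the same kind of starting point as CEBPD. This interferon-response transcription factor was undetected in untreated EVSA-T (5.36 and 5.44) and at 10.91 and 10.52 with BV6, about 39.8-fold higher. In MDA-MB-231 it was high throughout, at 9.55 to 10.19 untreated and 10.13 to 10.61 with BV6, and its response of 0.52 ± 0.31 was not called (adjusted p = 0.554; difference 4.79 ± 0.49, adjusted p = 1.15e-06). TIMP1, an inhibitor of metalloproteinases, lay at 13.28 to 13.47 in untreated MDA-MB-231 and rose from 5.99 and 5.85 to 7.27 and 7.03 in EVSA-T. ADM, encoding the peptide adrenomedullin, lay at 10.70 to 11.10 in untreated MDA-MB-231 and went from 5.69 and 5.96 to 7.32 and 7.97 in EVSA-T. Over all 284 genes up in EVSA-T only, the untreated level was at least 1 log2 unit higher in MDA-MB-231 for 92 (32.4%), against 15.6% of all genes tested, and at least 1 unit higher in EVSA-T for 37. The classes were chosen on these arrays, so these shares are descriptions.

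For 70 of the 284 genes no control-siRNA array of MDA-MB-231 detected the probe, so the response there rests on undetected signals. The other 214 were detected on at least 1 such array and 139 on every one. The 95% interval of the MDA-MB-231 response lay within -0.5 to 0.5 (log2) for 152 of the 284, and for the rest the interval reached past that size. The 152 include undetected genes such as CCL20 (-0.12 to 0.47), whose interval describes background signal. They are therefore no count of responses measured as small. The median response of the 284 was 1.43 in EVSA-T and 0.04 in MDA-MB-231, where the medians over all genes were -0.06 and -0.01.

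Canonical NF-kB targets were among the genes with the largest differences. The list was chosen with earlier results of these data known, so the shares below are descriptions. Among the arrays fitted together, its members CCL20 and CCL2 were detected only on BV6-treated EVSA-T arrays. They thus passed the detection filter through the groups where they were high. MAP3K8 entered 8 of the 10 fits that left out an array, and passed the filter through control-siRNA EVSA-T arrays alone. Of 41 listed targets 39 passed the detection filter, and the response was higher in EVSA-T for 20 and lower for 2, TRAF1 and CXCL2, where 3.08% and 1.89% of all genes were; their median difference was 0.98, against -0.04 over all genes tested. In EVSA-T 30 of the 39 rose (6.84% of all genes) and in MDA-MB-231 18 rose (1.42% of all genes), and none fell in either line. Of the 20, 12 were up in EVSA-T only: besides CCL20, CCL2, TNF and IRF1 these were TNFAIP2, MAP3K8, LTB, CCL5, SDC4, IER3, SOD2 and PTGS2. MAP3K8, the TPL2 kinase upstream of ERK, went from 5.29 and 5.59 to 9.17 and 8.17 in EVSA-T and was detected on no control-siRNA MDA-MB-231 array. LTB, the membrane partner of lymphotoxin alpha, went from 5.29 and 5.35 to 8.76 and 9.55; in MDA-MB-231 it went from 5.40 to 6.02 up to 6.02 to 7.18, a response that was not called (adjusted p = 0.138). TNFAIP2 rose at least 46.2-fold in EVSA-T, and in MDA-MB-231 it lay at 5.63 to 6.10 untreated and 6.44 to 7.50 with BV6 (adjusted p = 0.0838). For LTB, TNFAIP2, CCL5 and TNF the absence of a call in MDA-MB-231 thus stood beside higher means with BV6.

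The other 8 NF-kB targets with a higher difference rose in both lines and more in EVSA-T. TNFAIP3, the A20 ubiquitin-editing inhibitor of NF-kB, was undetected in untreated EVSA-T (5.19 and 5.28) and at 10.96 and 10.50 with BV6, at least 41.6-fold higher (difference 4.60 ± 0.36, adjusted p = 1.90e-08). In MDA-MB-231 its values went from 5.45 to 5.67 up to 6.32 to 6.65, and although the response was called (adjusted p = 0.0408) no control-siRNA array of that line passed the detection threshold. CXCL8, the neutrophil chemokine interleukin-8, rose at least 35.6-fold in EVSA-T, to 10.33 and 10.69; MDA-MB-231 held it at 9.88 to 10.49 before BV6 and at 11.47 to 11.93 after (response 1.66 ± 0.19, adjusted p = 1.33e-05). NFKBIZ, a nuclear IkB protein, rose by 4.11 ± 0.24 in EVSA-T and by 0.89 ± 0.20 in MDA-MB-231 (difference adjusted p = 5.87e-07). NFKB1, TNIP1, CD83, IL32 and ZC3H12A had differences of 1.34, 1.95, 1.97, 1.13 and 2.15. A second IL32 probe gave a difference of 0.02, so the call for this gene rests on its brighter probe.

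Not all NF-kB targets differed. NFKB2, the precursor of the non-canonical p52 subunit, rose to 8.66 and 8.35 in EVSA-T, from 5.45 and 5.50, and to 9.22 to 9.34 in MDA-MB-231, from 6.45 to 6.99. Its response difference was 0.39, with a 95% interval from -0.12 to 0.90 (adjusted p = 0.49). CXCL1, a neutrophil chemokine, rose to 8.66 and 7.81 in EVSA-T and 9.26 to 9.51 in MDA-MB-231, with a difference of -0.09 (interval -0.73 to 0.54). NFKBIA, the IkB-alpha inhibitor, rose by 3.16 ± 0.24 and by 2.22 ± 0.20; its difference of 0.94 (interval 0.29 to 1.60) had an adjusted p of 0.0975 and of 0.0163 with same-numbered samples as blocks. ICAM1, an adhesion molecule, and RELA, the p65 subunit, had differences of 0.90 and -0.78, neither called (adjusted p = 0.164 and 0.19). These intervals bound the differences and do not show equal responses. Of 101 genes called in both lines, 86 rose and 14 fell in both, and 70 had no called difference.

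In the non-canonical pathway list 14 of 20 genes passed the filter, 5 rose in each line, and the difference was called for RELB alone. Of all genes tested 6.84% rose in EVSA-T and 1.42% in MDA-MB-231, and the difference was higher for 3.08% and lower for 1.89%. RELB, the partner of p52, went from 5.27 and 5.28 to 8.65 and 8.10 in EVSA-T and from 5.92 to 6.92 up to 7.31 to 7.67 in MDA-MB-231 (difference 2.10 ± 0.30, adjusted p = 8.50e-05). MAP3K14 (NIK) was detected on no control-siRNA EVSA-T array, and rose by 0.92 ± 0.19 in MDA-MB-231 (adjusted p = 0.00904); the difference was not called (adjusted p = 0.092). BIRC2, which encodes the drug target cIAP1, rose by 0.68 ± 0.16 in MDA-MB-231 (adjusted p = 0.0236) and by 0.37 ± 0.19 in EVSA-T (adjusted p = 0.257), with a difference of -0.32 (interval -0.83 to 0.20). XIAP and CASP8 had differences of 0.35 and -0.01, neither called.

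Among 35 chemokines and cytokines listed 19 passed the filter. The difference was higher for 7, all but CXCL8 and IL32 up in EVSA-T only, and lower for CXCL2, where 3.08% and 1.89% of all genes were. CCL20, CCL2 and CXCL10 passed the filter only through BV6-treated EVSA-T arrays, where they were high, so these shares are descriptions. CXCL10, an interferon-inducible chemokine for T cells, rose about 35.5-fold in EVSA-T, from 5.46 and 5.37 to 10.48 and 10.65. It was detected on no control-siRNA MDA-MB-231 array (difference 5.03 ± 0.20, adjusted p = 5.52e-13). CX3CL1, the membrane-bound chemokine fractalkine, went from 7.14 and 7.88 to 10.94 and 11.15 in EVSA-T and was also detected on no control-siRNA MDA-MB-231 array. IL6 showed the reverse pattern without reaching the threshold: it was detected on no control-siRNA EVSA-T array and went from 7.94 to 8.66 up to 9.31 to 10.37 in MDA-MB-231. The IL6 difference was -1.47 (interval -2.37 to -0.56, adjusted p = 0.0559), and with same-numbered samples as blocks its adjusted p was 9.68e-05. It was also called with the untransfected MDA-MB-231 arrays at 9 h (-1.98, adjusted p = 0.0075). With the slide of replicates 1 and 2 alone it was -1.565 (adjusted p = 0.0471).

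In the TNF ligand and receptor family 22 of 38 genes passed the filter and 4 had a called difference, each higher in EVSA-T, where 3.08% of all genes were. Besides TNF and LTB these were TNFSF15, the ligand TL1A (1.35 ± 0.28), and TNFRSF10B, the TRAIL receptor DR5, which rose in both lines (1.74 and 0.70); a second TNFRSF10B probe gave a difference of 0.02. The TNFSF15 call was lost with the slide of replicate 3 alone (adjusted p = 0.125) and with the untransfected arrays (0.0782), and the TNFRSF10B call in 4 settings, among them the authors' normalized values and the slide of replicate 3 alone (0.128). TNFSF10, the ligand TRAIL, rose in both lines and its difference of -0.50 had an interval from -1.75 to 0.75. TNFRSF1A lay at 9.27 and 8.93 in untreated EVSA-T and 9.53 to 9.98 in untreated MDA-MB-231, and its response difference was 0.08. In the list of TNFR1 complexes and cell death genes, 34 of 43 passed and the difference was called only for BID. That share is near the 3.08% of all genes that were higher and says nothing particular about the list. BID, the BH3-only caspase-8 substrate, went from 7.95 and 7.65 to 9.72 and 9.28 in EVSA-T (difference 1.30 ± 0.25, adjusted p = 0.0027).

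Of 37 AP-1 and immediate early genes listed 30 passed; the difference was higher for 8 and lower for 1, FOS, where 3.08% and 1.89% of all genes were, with a median difference of 0.19. In EVSA-T 16 of the 30 rose and in MDA-MB-231 7 did, where 6.84% and 1.42% of all genes did. ZFP36, which promotes decay of cytokine mRNAs, went from 7.93 and 8.18 to 11.33 and 11.04 in EVSA-T, and from 8.69 to 9.06 up to 9.44 to 9.84 in MDA-MB-231 (adjusted p = 0.102). CCN2, a matricellular growth factor, rose in EVSA-T from 6.36 and 7.80 to 9.50 and 10.82, while in MDA-MB-231 its means were 12.81 untreated and 12.30 with BV6 (difference 3.59 ± 0.46, adjusted p = 2.78e-05). IER3, IER5, KLF4, DUSP2, DUSP6 and MAFF had differences between 1.25 and 1.77. Another KLF4 probe gave 0.12, another DUSP6 probe 0.26 and another MAFF probe -0.12, and the DUSP6 call was lost without EVSA-T untreated replicate 1 or BV6 replicate 1. EGR1 rose by 1.39 ± 0.24 in EVSA-T and 1.56 ± 0.20 in MDA-MB-231 (difference interval -0.82 to 0.47), and ATF3 by 1.49 and 0.73. With the untransfected MDA-MB-231 arrays at 9 h in place of the control-siRNA ones, the EGR1 difference was -1.52 and was called (adjusted p = 0.0168). JUN rose by 1.24 ± 0.22 in EVSA-T; its difference of 0.73 had an interval from 0.15 to 1.32 and was not called.

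Interferon and antigen-presentation genes moved in small numbers. Their counts stand against 3.08% higher and 1.89% lower over all genes tested. Of 37 listed interferon-gamma and IRF1 targets 21 passed. IRF1, CXCL10, GCH1 and TAP1 were higher in EVSA-T and GBP4 lower. CXCL10 passed the filter only through BV6-treated EVSA-T arrays, where it was high. TAP1, the peptide transporter for class I, rose from 8.10 and 7.94 to 10.76 and 11.02 in EVSA-T and from 10.85 to 11.22 up to 11.57 to 11.90 in MDA-MB-231 (difference 2.23 ± 0.24, adjusted p = 2.67e-06). Of 43 interferon response genes 37 passed, and the difference was higher for IFIT1, ISG20 and OAS3 and lower for USP18; IFIT1 fell in MDA-MB-231 and was detected on no control-siRNA EVSA-T array. The class I list had 18 of 21 genes passing and 2 called, TAP1 and TAPBP; the TAPBP call was lost in 7 of 10 fits that left out an array, with adjusted p up to 0.131, and a second probe gave 0.17. The OAS3 call was lost without EVSA-T untreated replicate 1, untreated replicate 2 or BV6 replicate 2, with adjusted p up to 0.0674.

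In the lists that follow, counts stand against 3.08% higher and 1.89% lower over all genes tested, and a share near these says nothing particular about a list. No difference was called among 23 genes of the unfolded protein response and heat shock or among 18 of cholesterol synthesis. In the integrated stress response PPP1R15A (1.98 ± 0.22), CEBPB (1.41 ± 0.27) and STC2 (1.15 ± 0.28) were higher of 25 genes; the STC2 call was lost without EVSA-T untreated replicate 1 or BV6 replicate 1. Among 18 p53 targets CDKN1A, the cyclin-dependent kinase inhibitor p21, was higher by 1.58 ± 0.23 together with TNFRSF10B. Of 41 cell cycle genes 9 fell and 2 rose in EVSA-T, where 6.24% and 6.84% of all genes did, and none was called in MDA-MB-231, where 0.644% fell and 1.42% rose; but the difference was called only for CCND1 and CDC25B (higher) and RRM2 (lower). CDC25B, the cell cycle phosphatase, differed by 1.29 ± 0.22; the CCND1 call was lost in 7 of 10 fits that left out an array (adjusted p up to 0.257) and RRM2 without EVSA-T BV6 replicate 1 (0.0544). Among 27 hypoxia and glycolysis genes ADM alone was higher. Of 20 genes of NRF2 and oxidative stress SOD2 was higher and HMOX1 and AKR1B10 lower, the AKR1B10 call being lost in 8 of 10 such fits (adjusted p up to 0.229) and HMOX1 without EVSA-T untreated replicate 2 or BV6 replicate 2 (up to 0.114). Of 9 metalloproteinase and plasminogen genes TIMP1 and SERPINE2 were higher, SERPINE2 on no detected EVSA-T array and with its call lost in 9 of 10 fits (up to 0.144).

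Small nuclear and related RNAs rose in both lines. Of 16 listed 11 passed and 10 rose in each line, where 6.84% of all genes rose in EVSA-T and 1.42% in MDA-MB-231. For 5 the difference was called, all larger in EVSA-T: RNU6ATAC (1.79), RPPH1 (1.41), RNU4ATAC (1.39), RNU11 (1.04) and RNU4-1 (0.70). RNU4ATAC went from 5.64 and 5.66 to 8.67 and 8.38 in EVSA-T and from 5.64 to 5.95 up to 6.92 to 7.55 in MDA-MB-231. U6atac, U4atac and U11 belong to the minor spliceosome, and RPPH1 is the RNA of ribonuclease P. The RNU11 call was lost in 4 other settings, among them the authors' normalized values and the untransfected arrays (adjusted p = 0.244), and the RNU6ATAC call with the untransfected arrays (0.0541). The RNU4-1 call was lost in 9 of 10 fits that left out an array, with adjusted p up to 0.182. In all 30 genes that moved the same way in both lines the response was larger in EVSA-T.

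Among the 167 genes that fell in EVSA-T only, the changes were smaller, with a median response of -1.02 in EVSA-T and 0.01 in MDA-MB-231. PRR15L fell from 8.99 and 8.97 to the undetected 5.75 and 5.49, about 10.3-fold lower. It was detected on no control-siRNA MDA-MB-231 array (difference -3.32 ± 0.19, adjusted p = 1.55e-10). TRIL, an accessory protein of Toll-like receptor signalling, fell from 9.63 and 9.78 to 6.97 and 7.05, and HCAR1, the lactate receptor, from 8.12 and 8.12 to 6.05 and 6.26. SYBU, syntabulin, which links cargo to kinesin, fell from 11.25 and 10.92 to 8.99 and 9.30 (difference -1.99 ± 0.25, adjusted p = 1.65e-05). ARHGEF3 fell from 10.28 and 10.05 to 7.99 and 8.49, while MDA-MB-231 held it at 8.26 to 8.58 untreated and 8.42 to 8.65 with BV6. BV6 thus brought ARHGEF3 in EVSA-T close to the MDA-MB-231 level.

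SOSTDC1, a secreted antagonist of BMP and Wnt signals, fell about 3.91-fold in EVSA-T. EVA1A, linked to autophagy, fell about 3.5-fold there, while MDA-MB-231 had it at 8.73 to 9.08 untreated and 8.67 to 9.11 with BV6. Other EVA1A probes gave differences of -0.77 and -0.71 against -1.87. The difference for CXXC5, a CXXC zinc-finger protein, was called (-1.90 ± 0.53, adjusted p = 0.0447) but the call was lost in 9 of 10 fits that left out an array, with adjusted p up to 0.161. USP18, the protease that removes ISG15, fell from 8.06 and 8.62 to 7.29 and 7.12 and was detected on no control-siRNA MDA-MB-231 array. Of the 167 genes 61 were detected on no MDA-MB-231 control-siRNA array. The untreated level was at least 1 log2 unit higher in EVSA-T for 105 (62.9%), against 17.3% of all genes tested. The class was chosen on these arrays, where a gene must lie above background to fall, so this share is a description. For 58 of the 167 the BV6 arrays of EVSA-T no longer detected the probe.

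Only 20 genes rose in MDA-MB-231 alone. TRAF1, an adaptor of TNF receptor signalling, was undetected on the 3 untreated arrays (5.63 to 5.78) and at 9.28, 8.97 and 8.73 with BV6, about 9.91-fold higher. In EVSA-T it was undetected throughout, at 5.32 and 5.53 untreated and 5.47 and 5.44 with BV6 (difference -3.27 ± 0.23, adjusted p = 4.64e-09). CXCL2, a neutrophil chemokine close to CXCL1, went from 5.55 to 5.83 up to 8.50 to 9.06 in MDA-MB-231 and was detected on no control-siRNA EVSA-T array (difference -3.05 ± 0.36, adjusted p = 9.66e-06). With the slide of replicates 1 and 2 or that of replicate 3 alone the difference was -3.38 or -3.03 for TRAF1 and -3.10 or -2.90 for CXCL2. A dimmer TRAF1 probe gave a difference of -0.58.

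RRAD, a Ras-like GTPase, rose in MDA-MB-231 by 1.86 ± 0.21 (adjusted p = 1.15e-05) and was detected on no control-siRNA EVSA-T array. KCNS3, a modulatory potassium channel subunit, went from 6.06 to 6.29 up to 7.60 to 7.86 (about 2.88-fold). G0S2, an inhibitor of the lipase ATGL, went from 8.77 to 9.55 up to 10.53 to 10.73, and CEMIP, involved in hyaluronan breakdown, from 8.69 to 9.67 up to 10.32 to 10.98. GBP4, an interferon-inducible GTPase, went from 5.83 to 6.28 up to 7.13 to 7.85, and ZNF697 from 6.72 to 7.10 up to 8.31 to 8.55. In each of these genes the 3 BV6 arrays lay above the 3 untreated arrays. The RRAD call was lost with the slide of replicate 3 alone (adjusted p = 0.153), with the authors' normalized values and without background correction, and the GBP4 call with the untransfected arrays in place of the control-siRNA arrays of MDA-MB-231 (0.182). The CEMIP call was lost without EVSA-T untreated replicate 1 or BV6 replicate 2 (adjusted p up to 0.0712). FOS was called (difference -1.32 ± 0.27, adjusted p = 0.00392) although only 1 of 6 MDA-MB-231 arrays detected it, and with the slide of replicate 3 alone its difference was -0.62 (adjusted p = 0.306).

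**Figure D3:**
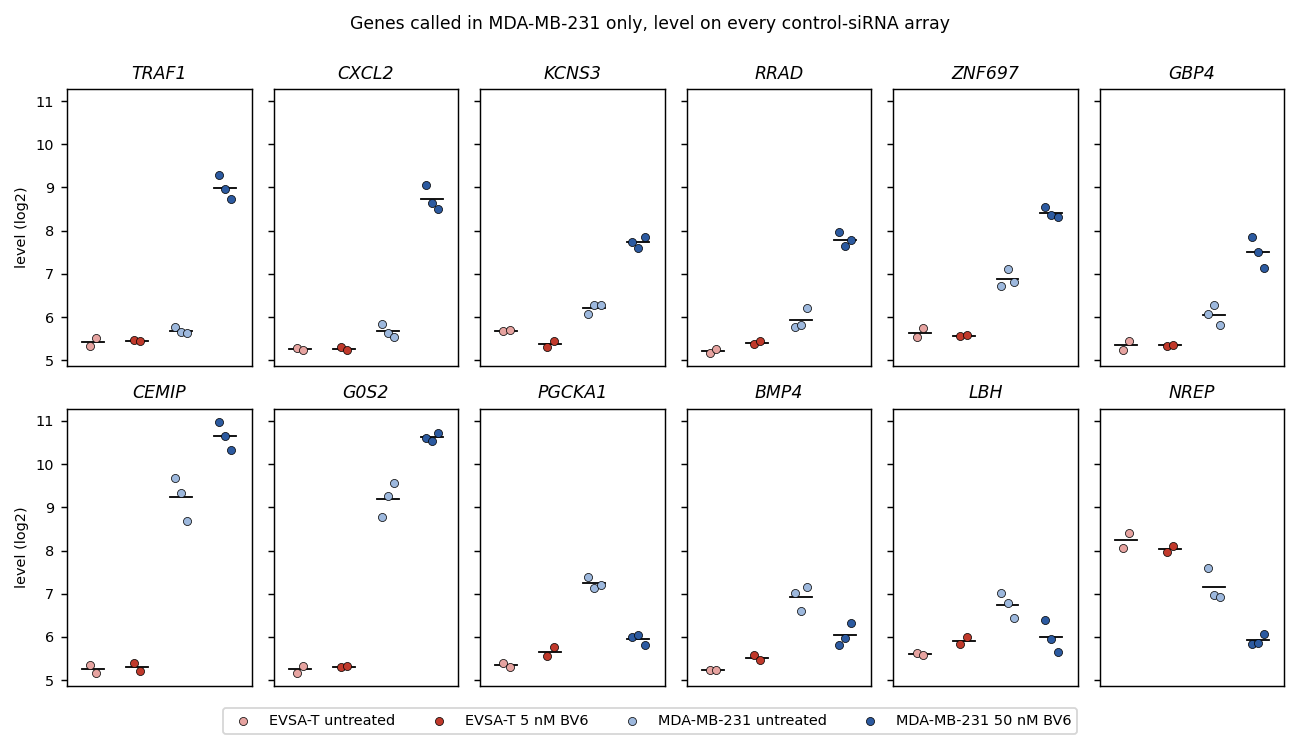
Level (log2, y axis) on every control-siRNA array for the 8 genes with the largest difference among those up in MDA-MB-231 only and the first 4 of those down; points are arrays, bars are group means. EVSA-T points lie near the background of 5.3 in all panels except NREP, and the dark blue BV6 points of MDA-MB-231 stand above or below its pale untreated points.

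Of these 20 genes 12 were detected on no EVSA-T control-siRNA array, so for most of them the EVSA-T response rests on undetected signals. The 8 that fell in MDA-MB-231 only included BMP4, a secreted growth factor, RUNX2, a transcription factor of bone, and IFIT1, an interferon-induced RNA-binding protein. PGCKA1 went from 7.13 to 7.39 down to 5.81 to 6.04 (difference 1.60 ± 0.22, adjusted p = 7.86e-05), and IFIT1 from 10.20 to 10.31 down to 9.37 to 9.49 (0.95 ± 0.21, adjusted p = 0.00996). Both kept their call whichever array was left out, but the IFIT1 call was lost with the slide of replicate 3 alone (adjusted p = 0.179) and with the untransfected arrays (0.69 on the log2 scale, adjusted p = 0.253). For the other 6 the call was lost in at least 1 such fit: in 1 for BMP4 (without EVSA-T BV6 replicate 1, adjusted p = 0.0504), 4 for NREP, 8 for LBH and CPA4, 9 for TRIM6 and 10 for RUNX2, with adjusted p up to 0.15. A second LBH probe gave a difference of 0.01, against 1.05 for the brighter probe. NREP was the 1 gene of the 8 detected on every EVSA-T array, at 8.07 and 8.40 untreated and 7.97 and 8.10 with BV6. In MDA-MB-231 NREP was detected on 2 of 6 arrays.

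EHD1, an endocytic recycling ATPase, was the only gene called in both lines in opposite directions. It fell from 10.81 and 10.76 to 10.37 and 10.19 in EVSA-T (adjusted p = 0.0446) and went from 11.87 to 12.15 up to 12.54 to 13.07 in MDA-MB-231 (adjusted p = 0.00219). The groups did not overlap in either line, and the difference was -1.26 ± 0.21 (adjusted p = 0.00054).

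The siTNFR1 arrays gave a second, separate measurement of the difference in cells with less TNFR1. TNFRSF1A fell by 2.73 ± 0.25 in untreated EVSA-T (adjusted p = 1.37e-05) and fell by 4.16 ± 0.21 in untreated MDA-MB-231 (1.86e-10). With BV6 it lay at 6.28 and 5.72 on the 2 siTNFR1 arrays of EVSA-T and at 5.54 to 5.89 on those of MDA-MB-231. In these cells BV6 raised 21 genes in EVSA-T (0.196%) and lowered none (0%), with 520 genes at an unadjusted p under 0.05, and raised 79 (0.737%) and lowered 32 (0.299%) in MDA-MB-231. The response difference was called for 26 genes, 12 higher (0.112%) and 14 lower (0.131%), and for 46 with same-numbered samples as blocks. Whether the response of a gene differed between the siRNAs was not tested here.

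Of the 284 genes up in EVSA-T only, 15 were called up again in siTNFR1 EVSA-T cells, and for 10 the difference between the lines was called again. CCL20 went from 5.32 and 5.21 to 11.38 and 10.81 in these cells, and its difference was called (adjusted p = 1.70e-12). TNF went from 5.27 and 5.30 to 9.90 and 8.29, and its difference was also called (adjusted p = 1.38e-05). CFB, CCL2, IGFL1, CEBPD, S100A8, CXCL10 and IRF1 likewise had called differences in siTNFR1 cells, and FBLN5 did not (adjusted p = 0.0787). CXCL10 was detected on no siTNFR1 array of either line, so its difference there rests on undetected signals. On replicate 1, where TNFRSF1A remained higher, the BV6 level of CCL20 and of TNF was also higher; its part was not tested. The median siTNFR1 EVSA-T response of the 284 genes was 0.17. None of the 167 genes down in EVSA-T only was called down in siTNFR1 EVSA-T cells, and their median response there was -0.03.

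Of the 20 genes up in MDA-MB-231 only, 14 were called up again in siTNFR1 cells of that line, with a median response of 0.95 against 1.31 under control siRNA. TRAF1 went from 5.57 to 5.94 up to 8.50 to 8.87 (adjusted p = 1.25e-10), and its difference between the lines was called again (3.42e-07). CXCL2 went from 5.40 to 5.59 up to 6.21 to 7.58 (adjusted p = 0.00104), and its difference was not called (0.137). KCNS3, ZNF697 and GBP4 had called differences in siTNFR1 cells. NFKB2 and CXCL1, whose responses did not differ under control siRNA at the threshold, had called differences in siTNFR1 cells: NFKB2 rose by 1.82 in MDA-MB-231 and was not called in EVSA-T at 0.53 (difference adjusted p = 0.0245), and CXCL1 rose by 2.19 against 0.17 (0.0025). Of the 8 genes down in MDA-MB-231 only, 2 were called again, NREP and RUNX2.

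**Figure D4:**
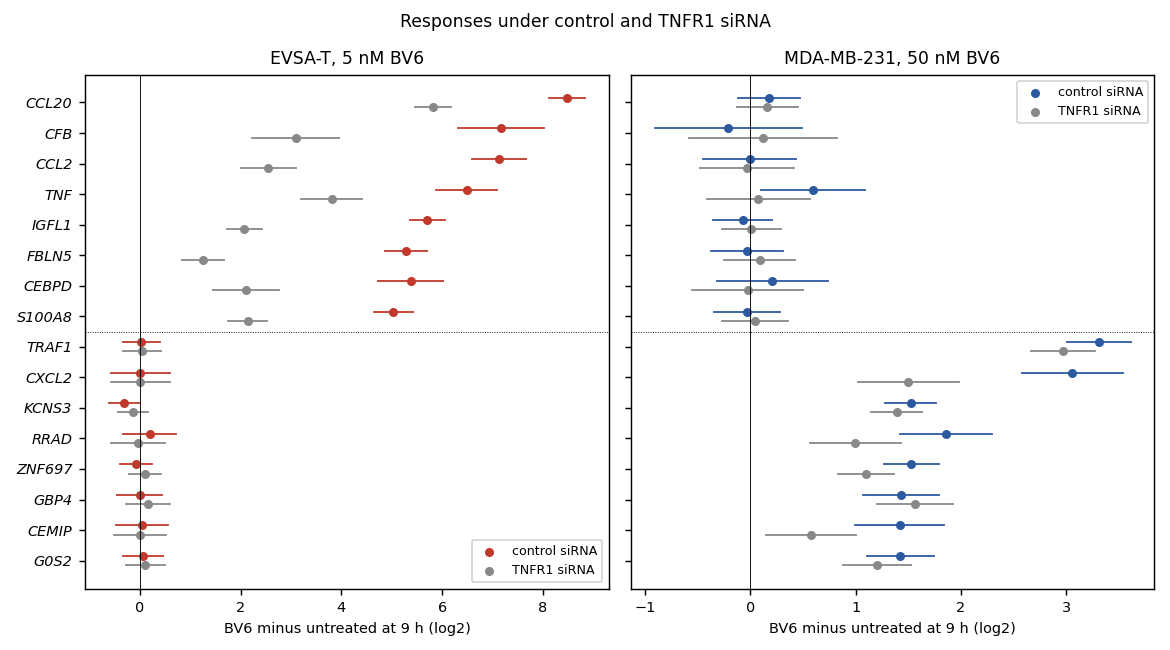
BV6 response (log2, x axis) with its 95% interval for the 8 leading genes up in EVSA-T only (above the dotted line) and up in MDA-MB-231 only (below it), under control siRNA (coloured) and TNFR1 siRNA (grey). In EVSA-T all 8 upper genes lie above 0 under both siRNAs, with CCL20 at 8.48 and 5.83; in MDA-MB-231 TRAF1 lies at 3.31 and 2.97.

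Untransfected MDA-MB-231 cells gave the response of that line in other arrays and at later times, at 50 nM BV6. Replicate 2 of the BV6 arrays at 6 to 15 h lay on another slide from every other array of the time course, the untreated ones included, so for that replicate treatment and slide cannot be told apart. Of the 284 genes up in EVSA-T only, 220 were measured there; 2, 1, 4, 31 and 41 of them were called up at 3, 6, 9, 12 and 15 h. Over all 9944 genes the shares called up were 0.272%, 0.412%, 0.955%, 2.53% and 3.87% at these times. At 9 h, the time of the comparison between the lines, the median response of the 220 genes was 0.15, and at 15 h it was 0.24. Some genes that did not pass in the transfected cells at 9 h thus rose in MDA-MB-231 later. CCL20 lay between 5.25 and 5.42 on the 6 untreated arrays, at 7.42 and 5.93 at 9 h (adjusted p = 0.0751), at 8.49 and 7.34 at 12 h and at 8.81 and 8.14 at 15 h (3.15 ± 0.34, adjusted p = 2.54e-05). Its 15 h level stayed below the 13.90 and 13.67 of EVSA-T at 9 h, which were normalized with other arrays.

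TNF was called at 12 h, at 6.92 and 6.26 (1.41 ± 0.33, adjusted p = 0.0273), against 5.07 to 5.39 untreated. PTGS2, the inducible cyclooxygenase, reached 8.91 and 8.72 at 15 h against 5.27 to 6.36 untreated (3.07 ± 0.46, adjusted p = 0.000688). When these untransfected arrays took the place of the control-siRNA arrays of MDA-MB-231 at 9 h, the PTGS2 difference turned from 0.98 to -0.10 (adjusted p = 0.974); its call was also lost without EVSA-T untreated replicate 1 or 2 and with either slide alone. SOD2, the mitochondrial superoxide dismutase, rose by 1.63 ± 0.18 at 15 h, ADM by 1.07 ± 0.16, IER3 by 0.90, IER5 by 0.65, CEBPB by 0.77 and CX3CL1 by 0.77. ZFP36 and TNFAIP2 were called at 9 h already, by 1.42 ± 0.17 and 1.17 ± 0.21. CFB was at 0.00 at 9 h and 0.32 at 15 h, not called at either time. CCN2 fell by 0.76 ± 0.15 at 15 h, and HMOX1, which fell in EVSA-T, rose by 1.05 ± 0.18.

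**Figure D5:**
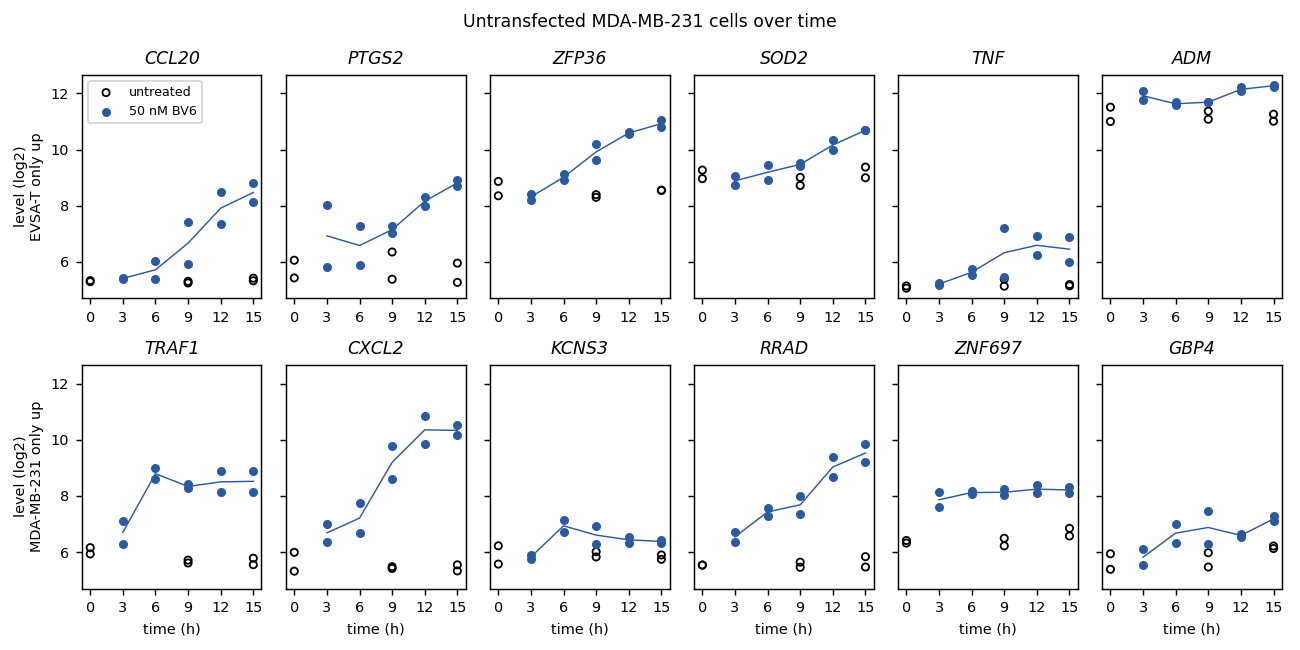
Level (log2, y axis) by time in hours (x axis) in untransfected MDA-MB-231; open points are untreated arrays, filled points BV6 arrays and lines their means. The upper row holds 6 genes up in EVSA-T only that were called here at 15 h, with CCL20 at 8.81 and 8.14 at 15 h; the lower row holds 6 genes up in MDA-MB-231 only, with TRAF1 near its later level from 6 h.

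Of the 20 genes up in MDA-MB-231 only, all measured here, 1, 9, 12, 14 and 16 were called up at 3, 6, 9, 12 and 15 h, and all 20 had a positive response at 9 h. TRAF1 stood at 8.41 and 8.27 at 9 h (2.55 ± 0.24, adjusted p = 2.11e-05) and CXCL2 at 9.78 and 8.62 (3.68 ± 0.34, adjusted p = 1.40e-05). CXCL2 and RRAD went on to 4.82 ± 0.34 and 3.95 ± 0.23 at 15 h. FOS, barely detected in the transfected cells, reached 8.90 and 8.47 at 9 h and 10.40 and 10.34 at 15 h (4.87 ± 0.16, adjusted p = 1.59e-10). KCNS3 was called at 6 h and not at 9 h (0.72 ± 0.20, adjusted p = 0.113). Of the 8 genes down in MDA-MB-231 only, 0, 0, 1, 3 and 4 were called down at these times, where 0.261% of all genes were called down at 9 h and 3.09% at 15 h. Of the 108 measured genes down in EVSA-T only, 0 were called down at 9 h and 4 at 15 h. EVSA-T was measured at 9 h alone, so no time course can be set beside these values.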

How the data were processed

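Total RNA of 48 samples was hybridised to Illumina bead arrays. The deposited table held log2 signals that the authors had not normalized, with a detection p-value for each of 48107 probes, and a second deposited table held the authors' quantile-normalized log2 values, used as an alternative. A gene symbol was given for 30112 probes, several for 8 and none for 17984, and 3 probes had a missing value. Which software made these tables was not stated in the labels. Detection p-values did not always follow the signal, which limits what detected means.

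Signals of 20 arrays (control and TNFR1 siRNA, both lines) were corrected and quantile normalized together with neqc in limma 3.58.1 under R 4.3.3, with an offset of 16 and with the negative-control signals estimated through the detection p-values. A probe had to be detected (p under 0.01) on at least 2 arrays, and each gene was represented by its brightest such probe, leaving 10716 genes. The limma fit (lmFit, eBayes) had 12 residual degrees of freedom. Errors are standard errors, p-values are two-sided and adjusted over all genes by Benjamini-Hochberg, and the threshold was 0.05. The 16 untransfected arrays were fitted alone (9944 genes, 8 residual degrees of freedom), each time against the mean of all untreated arrays. The steps were tested on simulated data.

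Genes named are the 8 with the largest difference in each single-line class, those called in opposite directions, members of the gene lists with a called difference, and a fixed set of pathway genes. The members and lists were chosen with earlier results of these data known. Same-numbered untreated and BV6 samples deviated together, with a residual correlation of 0.3 in EVSA-T and of 0.241, 0.162 and 0.126 in MDA-MB-231. With 2 arrays per group the residuals mirror each other, so the EVSA-T value is the same for either replicate. Differently numbered samples were not compared, and the control-siRNA arrays of MDA-MB-231 replicate 3 lay on another slide. Whether the numbers pair the samples was thus not settled. The printed errors, p-values and counts come from the fit without the replicate block, and the fit with it is an alternative, given where it changed a call. The lowest correlation across genes between replicate arrays was 0.987; the number of arrays limits the precision. Alternatives covered normalization, background correction, detection filter, probe choice, slide, pairing, weights, the untransfected arrays and each array left out. Arrays with other siRNAs were not used here.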

Additional observations from a re-analysis of the deposited data

Results flagged for a closer look

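The BV6 response of 87 named genes differed between EVSA-T and MDA-MB-231 by the test of the difference itself, and these values are response differences (log2, EVSA-T minus MDA-MB-231). Among genes up in EVSA-T only they were 8.30 for CCL20, 7.37 for CFB, 7.13 for CCL2, 5.89 for TNF, 5.78 for IGFL1, 5.32 for FBLN5, 5.17 for CEBPD, 5.06 for S100A8, 5.03 for CXCL10, 4.79 for IRF1, 4.43 for TNFAIP2 and 3.59 for CCN2. Further values in the same class were 3.28 for CX3CL1, 3.21 for MAP3K8, 2.96 for LTB, 2.42 for CCL5, 2.31 for SDC4, 2.31 for ZFP36, 1.77 for IER5, 1.74 for ISG20, 1.69 for ADM, 1.66 for KLF4, 1.53 for IER3 and 1.52 for GCH1. Further values in the same class were 1.46 for SOD2, 1.43 for DUSP2, 1.41 for CEBPB, 1.39 for TIMP1, 1.35 for TNFSF15, 1.30 for BID, 1.29 for CDC25B, 1.29 for OAS3, 1.25 for DUSP6, 1.15 for STC2, 1.10 for TAPBP and 1.02 for CCND1. Further values in the same class were 0.98 for PTGS2 and 0.64 for SERPINE2. Among genes down in EVSA-T only the differences were -3.32 for PRR15L, -2.77 for TRIL, -2.08 for HCAR1, -2.07 for ARHGEF3, -2.04 for SOSTDC1, -1.99 for SYBU, -1.90 for CXXC5, -1.87 for EVA1A, -1.27 for RRM2, -1.14 for USP18, -1.11 for HMOX1 and -0.73 for AKR1B10. Among genes up in MDA-MB-231 only they were -3.27 for TRAF1, -3.05 for CXCL2, -1.84 for KCNS3, -1.66 for RRAD, -1.60 for ZNF697, -1.44 for GBP4, -1.37 for CEMIP, -1.36 for G0S2 and -1.32 for FOS. Among genes down in MDA-MB-231 only they were 1.60 for PGCKA1, 1.16 for BMP4, 1.05 for LBH, 1.03 for NREP, 0.95 for IFIT1, 0.87 for RUNX2, 0.74 for CPA4 and 0.69 for TRIM6. Among genes that moved the same way in both lines they were 4.60 for TNFAIP3, 3.58 for CXCL8, 3.22 for NFKBIZ, 2.23 for TAP1, 2.15 for ZC3H12A, 2.10 for RELB, 1.98 for PPP1R15A, 1.97 for CD83, 1.95 for TNIP1, 1.79 for RNU6ATAC, 1.65 for MAFF and 1.58 for CDKN1A. Further values in the same class were 1.41 for RPPH1, 1.39 for RNU4ATAC, 1.34 for NFKB1, 1.13 for IL32, 1.04 for TNFRSF10B, 1.04 for RNU11 and 0.70 for RNU4-1. For the gene called in opposite directions the difference was -1.26 for EHD1. Of these 87 genes, 68 kept their call in every fit without 1 array that they entered, and 51 under every alternative they entered. A gene could drop out at the detection filter: 83 of the 87 entered all 10 such fits and 4 entered 8 or 9, and 47 entered all 14 other alternatives and 40 entered 11 to 13. Line, dose and slide cannot be told apart in any of these differences.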

How the results depend on the processing

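The number of genes with a called response difference was 532, and it ranged from 373 to 492 when each array was left out in turn. The same ranges were 893 to 1450 for the EVSA-T response (1402 with all arrays), 112 to 211 for the MDA-MB-231 response (221), 323 to 434 for EVSA-T-only genes (451), 17 to 29 for MDA-MB-231-only genes (28) and 26 to 32 for the difference in siTNFR1 cells (26). With genes detected on at least 2 control-siRNA arrays of each line these counts were 312 for the difference, 114 for MDA-MB-231, 262 for EVSA-T only, 6 for MDA-MB-231 only and 10 in siTNFR1 cells, where fewer genes were tested. With the replicate block they were 337 for MDA-MB-231, 45 for MDA-MB-231 only and 46 in siTNFR1 cells; among uncalled named genes NFKBIA (0.94) and IL6 (-1.47) gained a call with the block. With MDA-MB-231 arrays of slide 1 alone 117 MDA-MB-231 responses were called. With those of slide 2 alone the counts were 58, with 255 differences and 207 EVSA-T-only genes; fewer samples entered both fits. The PTGS2 difference reversed to -0.10 with the untransfected arrays at 9 h, and the cause was not tested. With the same arrays IL6 (-1.98) and EGR1 (-1.52) gained a call. Probes near background limit what can be seen in the line that did not detect them.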
